A study of Mus musculus with 17 samples.

Results

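Pleiotrophin (Ptn) and midkine (Mdk) are the only 2 members of a family of small secreted proteins that bind heparin, and 5 further genes were taken with them: the receptor phosphatase Ptprz1 and the syndecans Sdc1, Sdc2, Sdc3 and Sdc4. The list was chosen by the CPM of Ptn, which is lower under every treatment of the study, so the Ptn values against control are given as a description, with no test. The 7 genes are 7 of 35896 gene identifiers in the deposited tables, and all 7 were among the 13923 genes that passed the filter on low counts.

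RNA was sequenced from wild-type C57BL/6J mouse pancreatic stellate cells, the mesenchymal cells of the pancreas that can turn into fibroblasts. For 4 days the lines PSC4 and PSC5 were each kept in Matrigel (a basement membrane gel) in 1 of 4 media. Control medium had 5 libraries (PSC4 numbers 1, 2 and 3, PSC5 numbers 1 and 2), and TGF-beta at 20 ng/mL had 4 (PSC4 numbers 2 and 3, PSC5 numbers 1 and 2). Medium conditioned by pancreatic tumour organoids, called CM here, had 4 libraries, and such medium with neratinib at 300 nM, which blocks signalling by ERBB receptors, had 4 (in both, PSC4 numbers 1 and 2 and PSC5 numbers 1 and 2). The replicate number goes with the passage (23, 24 and 25 in PSC4; 27 and 28 in PSC5), and in the conditioned media it also goes with a code that the labels do not explain (T8 for number 1, T6 for number 2). No library had neratinib without conditioned medium. All cells came from 2 lines, and nothing in the labels says that libraries of a line are separate isolates, so p-values measure the spread between these libraries.

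Pleiotrophin and midkine carry clusters of basic residues that bind the sulfated sugar chains of proteoglycans. Ptprz1 is a receptor tyrosine phosphatase with chondroitin sulfate chains, and pleiotrophin binding lowers its phosphatase activity. Syndecans are transmembrane proteoglycans that carry heparan sulfate on the cell surface, where they present growth factors to their receptors, bind matrix and are shed by metalloproteases. Both ligands are known from the developing embryo and from tumour tissue, the pancreas included.

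Each library held between 22168953 and 29421447 estimated counts in between 16199 and 17405 detected genes. The stellate cell label was checked against 12 fibroblast and stellate cell markers. Vim was between 576 and 1532 CPM (counts relative to the TMM-scaled library total) and Pdgfrb between 103 and 656 CPM, but desmin (Des) reached only 3.71 CPM and Gfap at most 9 counts. Summed CPM of the 12 markers was 5461 to 6995 in control, 9915 to 20460 with TGF-beta, 5618 to 6762 in CM and 4079 to 6784 in CM with neratinib. Collagens weigh heavily in this sum (Col1a1 422 to 10480 CPM and Col3a1 385.5 to 4716 CPM over all libraries). Dcn ran from 17.7 to 2341 CPM, Pdgfra from 56.7 to 610 CPM and Lum from 0.326 to 23.3 CPM. A higher sum is therefore not a measure of stellate cell identity. The 3 libraries labelled PSC4 number 1 (control, CM, and CM with neratinib) stood apart from the other PSC4 libraries: the number of genes that differed between the lines was 970 as labelled and 6046 when these 3 were counted with PSC5. For Ptn, Mdk, Ptprz1 and the syndecans, calls that changed without these 3 libraries are given with and without them. The genes of the further lists below were fitted only with these 3 libraries included as labelled. Whether the calls and counts of those lists rest on these 3 libraries was not tested.

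The promoters of 3 genes are printed because their genes showed the 3 patterns described below: Ptn, lower than control in every treated group; Sdc1, higher than control in every treated group; and Sdc4, lower than control with TGF-beta. The sequences are the 250 bases before each RefSeq start site (GRCm38.p6), 5′ to 3′ on the gene's strand. They lie at chr6:36810180-36810429 (minus strand), chr12:8771146-8771395 (plus strand) and chr2:164443189-164443438 (minus strand). These start sites differ from those of the gene spans given below, which come from GENCODE. The Sdc4 window lies wholly inside its gene span, and the Ptn and Sdc1 windows overlap theirs in part. Capitals mark matches on either strand to the NF-kB consensus or to the SMAD box CAGAC.
Ptn: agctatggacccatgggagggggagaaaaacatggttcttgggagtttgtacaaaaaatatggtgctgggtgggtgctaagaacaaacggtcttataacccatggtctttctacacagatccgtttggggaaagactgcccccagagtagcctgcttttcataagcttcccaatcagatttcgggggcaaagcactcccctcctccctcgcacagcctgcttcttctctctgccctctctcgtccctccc
Sdc1: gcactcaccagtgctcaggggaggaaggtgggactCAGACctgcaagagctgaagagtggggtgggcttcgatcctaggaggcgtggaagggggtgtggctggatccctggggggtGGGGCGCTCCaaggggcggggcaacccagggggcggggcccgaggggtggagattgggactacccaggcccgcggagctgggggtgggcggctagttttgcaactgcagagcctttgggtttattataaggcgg
Sdc4: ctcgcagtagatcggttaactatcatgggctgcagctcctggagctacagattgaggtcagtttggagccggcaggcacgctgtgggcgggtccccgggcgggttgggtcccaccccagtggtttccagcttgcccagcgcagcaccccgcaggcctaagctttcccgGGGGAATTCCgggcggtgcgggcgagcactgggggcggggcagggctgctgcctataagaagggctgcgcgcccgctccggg
The NF-kB consensus matched once in the Sdc4 promoter (GGGGAATTCC, bases 169 to 178 of the window) and once in the Sdc1 promoter (GGGGCGCTCC, bases 117 to 126). A match was present in 7.25% of 32817 promoter windows of this length. The SMAD box occurred once in the Sdc1 window, at bases 36 to 40, and in 42.2% of all windows. None of the 3 windows held the AP-1 site TGANTCA, which 6.75% of all windows held, and the Ptn window held no match to any of the 3 motifs. These are letter matches and not measured binding sites. The table held promoters of 5 of the 7 genes, and the other 2 of these 5 belong to Ptprz1 and Sdc3.

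Ptn (ENSMUSG00000029838, GRCm38 chr6:36714929-36810220, minus strand), the secreted ligand, was the most abundant of the 7 transcripts per length in control medium and fell far down the order in each treated group. Control levels were 888, 504 and 470.1 CPM in PSC4 numbers 1, 2 and 3 and 769 and 839 CPM in PSC5 numbers 1 and 2. With TGF-beta they were 125 and 90.4 CPM in PSC4 numbers 2 and 3 and 201 and 60.8 CPM in PSC5. In CM they were 84.8 and 31.4 CPM in PSC4 numbers 1 and 2 and 20.6 and 149.7 CPM in PSC5. With neratinib added they were 10.8, 26.4, 27.7 and 40.9 CPM in the same order. The lowest control library was above the highest treated library, while the CM values overlapped both other treated groups and the TGF-beta libraries lay above those with neratinib. Group means were 694 ± 194 CPM (SD, n = 5) in control, 119 ± 60.5 with TGF-beta, 71.6 ± 59.15 in CM and 26.4 ± 12.3 in CM with neratinib (n = 4 each). The fitted log2 fold changes against control, which chose these genes, were -2.58 with TGF-beta, -3.34 in CM and -4.81 in CM with neratinib. Within pairs of the same line and number, Ptn was lower than control in 4 of 4 pairs for each treatment, by 3.82 to 13.8 times with TGF-beta, 5.60 to 37.4 times in CM and 19.1 to 82.4 times in CM with neratinib. In bulk RNA such a fall in level cannot be told apart between fewer cells that make a transcript and less of it per cell.

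**Figure D1:**
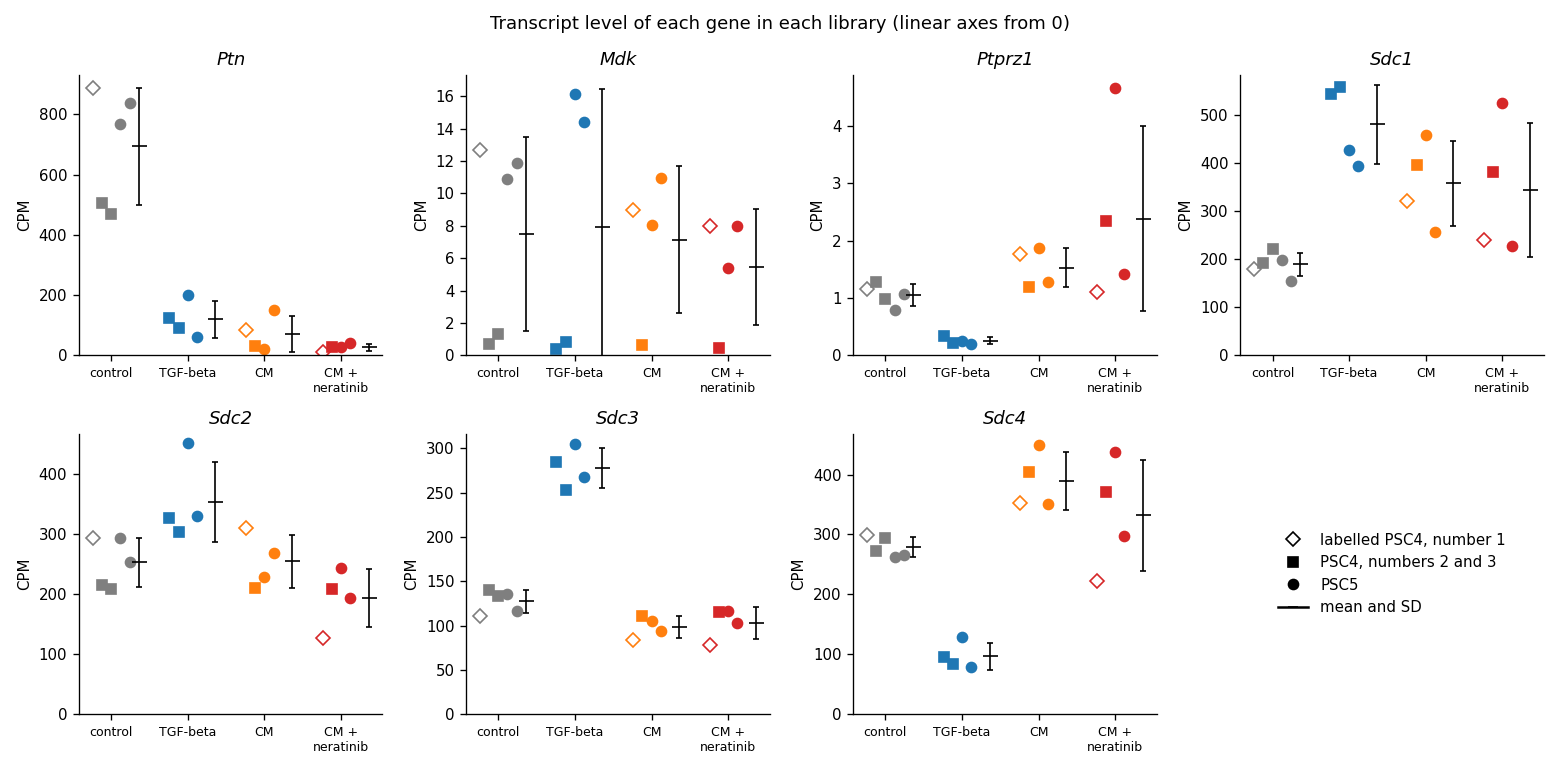
Level of each of the 7 genes in CPM (linear axes from 0) in each library, by medium; open diamonds are the 3 libraries labelled PSC4 number 1, squares the other PSC4 libraries, circles PSC5, and the black bar is the mean with its SD (5 control libraries, 4 in each other group). Ptn sits between 470.1 and 888 CPM in control and at or below 201 CPM elsewhere, and Mdk splits in every medium into low PSC4 libraries (numbers 2 and 3) and higher others.

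Mdk (ENSMUSG00000027239, chr2:91929805-91932297, minus strand), the other ligand, was low and split between libraries within every medium. In control it was at 12.7, 0.679 and 1.34 CPM in PSC4 numbers 1, 2 and 3 and at 10.9 and 11.9 CPM in PSC5. TGF-beta libraries had 0.376 and 0.831 CPM in PSC4 and 16.2 and 14.4 CPM in PSC5. CM libraries had 8.97 and 0.635 CPM in PSC4 numbers 1 and 2 and 8.03 and 10.97 CPM in PSC5, and those with neratinib 8.002, 0.428, 5.40 and 7.97 CPM. Across all media the 6 libraries of PSC4 numbers 2 and 3 lay between 0.376 and 1.34 CPM, the 8 PSC5 libraries between 5.40 and 16.2 CPM, and the 3 libraries labelled PSC4 number 1 between 8.002 and 12.7 CPM, inside the PSC5 range. As labelled, PSC5 exceeded PSC4 by 1.65 (log2, SE 0.74), which did not pass (edgeR adjusted p = 0.154). None of the 7 genes passed in that comparison as labelled (1 had an unadjusted p under 0.05), beside 6.97% of all genes. Without the 3 libraries the difference was 3.99 (SE 0.24, adjusted p = 5.35e-07), and Sdc2 also passed. With the 3 counted as PSC5 it was 4.00 (adjusted p = 7.84e-09), and Mdk was then 1 of 7 to pass, beside 6046 of the 13923 genes. The count of all genes without the 3 libraries is not given here. The Mdk difference also passed when only the control library of PSC4 number 1 was left out (2.30, adjusted p = 0.0428) or only the one with CM and neratinib (2.24, adjusted p = 0.0456).

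Because of that split, Mdk could be compared between media mainly within pairs. Mdk passed in none of the 3 comparisons with control (edgeR adjusted p = 0.666, 0.928 and 0.706), with log2 fold changes of -0.61 (95% interval -2.77 to 1.54) for TGF-beta, -0.16 (-2.18 to 1.85) for CM and -0.49 (-2.53 to 1.56) for CM with neratinib. Within pairs of the same line and number, Mdk in CM with neratinib was below control in 4 of 4 pairs, at 0.495 to 0.669 of the control level. With a replicate block for line and number, this difference was -0.80 (SE 0.22) and passed (edgeR adjusted p = 0.00927). It was -0.96 (adjusted p = 0.0261) without the 3 libraries labelled PSC4 number 1 and -0.87 (adjusted p = 0.00729) with these counted as PSC5. In CM alone, 4 of 4 pairs were also below control, at 0.707 to 0.935 of its level, and TGF-beta pairs went both ways (2 of 4 higher).

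Ptprz1 (ENSMUSG00000068748, chr6:22875502-23052916, plus strand), the receptor phosphatase, was barely detected, and was lower still with TGF-beta. Control libraries had 1.15, 1.29, 0.987, 0.790 and 1.06 CPM (22 to 36 counts each). TGF-beta libraries had 0.338, 0.217, 0.258 and 0.203 CPM, which is 5 to 9 counts each. CM libraries had 1.77, 1.20, 1.87 and 1.27 CPM, and those with neratinib 1.11, 2.335, 4.67 and 1.42 CPM, in the order PSC4 numbers 1 and 2, PSC5 numbers 1 and 2. All TGF-beta libraries were below all others, and 1 library, PSC5 number 1 in CM with neratinib, was far above the rest. Ptprz1 fell by 2.05 with TGF-beta (log2, SE 0.41, edgeR adjusted p = 0.00115) and rose by 1.14 in CM with neratinib (SE 0.36, adjusted p = 0.0193). That rise did not pass without PSC5 number 1 of CM with neratinib or without PSC5 number 1 of control (adjusted p from 0.0566 to 0.0936), nor in a fit of only the 2 groups (adjusted p = 0.0751). In CM alone the difference was 0.51 (95% interval -0.25 to 1.27, adjusted p = 0.372).

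Sdc1 (ENSMUSG00000020592, chr12:8771323-8793715, plus strand), a syndecan also made in quantity by epithelial cells, rose in all 3 treated groups. Control libraries had 179.9, 193, 221, 198 and 156 CPM. TGF-beta libraries had 543.5 and 559.7 CPM in PSC4 and 427 and 395 CPM in PSC5. CM libraries had 320.5 and 396 CPM in PSC4 numbers 1 and 2 and 459 and 257 CPM in PSC5, and those with neratinib 239, 382, 526 and 229 CPM. Every treated library was above every control library, and the 3 treated groups overlapped one another. Log2 fold changes were 1.35 with TGF-beta (SE 0.23, edgeR adjusted p = 0.000306), 0.93 in CM (SE 0.23, adjusted p = 0.0164) and 0.87 in CM with neratinib (SE 0.23, adjusted p = 0.00736). The CM call was lost without PSC5 number 1 of CM (adjusted p = 0.0733). Sdc1 was higher than control in 4 of 4 same-number pairs for each treatment.

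Epithelial markers moved with some of these libraries. The summed level of 10 epithelial markers was 15.8 to 23.5 CPM in control and 14.8 to 20.3 CPM with TGF-beta, but 143 to 319 CPM in the 4 conditioned-media libraries of code T6 and 9.71 to 51.1 CPM in the 4 of code T8. Sdc1 in CM was 396 and 257 CPM with code T6 and 320.5 and 459 CPM with code T8. In CM with neratinib it was 382 and 229 CPM with code T6 and 239 and 526 CPM with code T8. The part of the epithelial signal in the Sdc1, Sdc4 and Mdk values of the conditioned media was not tested further. No gene, and so none of the 7, passed between codes T6 and T8 in a fit with the replicate block (edgeR; 0% of all genes, and 0 of the 7 at an unadjusted p under 0.05). The block also holds the replicate number, which goes with the code, and intervals were wide (Ptn log2 1.33, -0.32 to 2.97). The 10 epithelial markers did not pass either, so this fit cannot show that the codes gave like levels. Markers of other cells were low but not level across groups. The summed level of 7 Schwann and glial markers was 8.55 to 12.98 CPM in control, 13.7 to 18.1 CPM with TGF-beta, 7.73 to 12.6 CPM in CM and 5.62 to 11.9 CPM with neratinib, with Foxd3 at 0 in all 17 libraries and Sox10 at 0 in 12. That of 6 endothelial markers was 2.45 to 5.51, 3.66 to 5.63, 1.45 to 2.12 and 1.38 to 2.30 CPM in the same order, with Tie1 at most 1 count. The 7 immune markers summed to between 1.68 and 2.74 CPM except in 1 library of CM with neratinib, at 12.7 CPM, nearly all of it Cd68, while Ptprc was at most 1 count and Adgre1 and Cd3e were at 0. The 5 acinar markers summed to 7.33 to 11.9, 4.77 to 8.13, 7.37 to 12.2 and 5.37 to 10.6 CPM, nearly all of it Cela1, with Cpa1, Cel and Ctrb1 at most 1 count. The part of these cells in the values of the 7 genes was not tested.

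Sdc2 (ENSMUSG00000022261, chr15:32920723-33034935, plus strand), a syndecan typical of mesenchymal cells, was modestly higher with TGF-beta. Control libraries had 294, 215, 208.5, 293 and 254 CPM, and TGF-beta libraries 327, 304, 451 and 329.7 CPM. CM libraries had 310.3, 210.4, 229 and 269 CPM, and those with neratinib 128, 209, 244 and 193 CPM. TGF-beta libraries did not overlap control, while both conditioned media did. The rise with TGF-beta was 0.46 (log2, SE 0.17, edgeR adjusted p = 0.0412). It did not pass with upper-quartile scaling (adjusted p = 0.0667) or when 1 of 7 single libraries was left out (adjusted p from 0.0562 to 0.13), these being every library of the comparison but PSC4 number 1 of control and PSC5 number 2 of TGF-beta. In CM the difference was 0.00 (95% interval -0.36 to 0.36). In CM with neratinib it was -0.41 (-0.78 to -0.05, adjusted p = 0.0621), with 4 of 4 pairs lower; with the replicate block it was -0.44 and passed (adjusted p = 0.0483). It also passed with upper-quartile scaling (0.0381), DESeq2 (0.0436), the 3 libraries labelled PSC4 number 1 counted as PSC5 (0.0488), and without PSC4 number 2 or PSC5 number 1 of that medium (adjusted p from 0.0362 to 0.0441), and was -0.20 (adjusted p = 0.192) without the 3 libraries labelled PSC4 number 1.

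Sdc3 (ENSMUSG00000025743, chr4:130792537-130826319, plus strand), a syndecan best known as a pleiotrophin receptor in the nervous system, went in opposite directions with TGF-beta and with conditioned medium. Control libraries had 111, 140.2, 134, 135 and 117 CPM. TGF-beta libraries had 285, 253, 305 and 267 CPM, all above control. CM libraries had 83.7, 111, 105 and 94.1 CPM, and those with neratinib 78.3, 115, 116 and 102 CPM, both overlapping the lower control values. Sdc3 rose by 1.12 with TGF-beta (log2, SE 0.12, edgeR adjusted p = 4.33e-06). It fell by 0.38 in CM (SE 0.12, adjusted p = 0.0444) and by 0.31 in CM with neratinib (SE 0.12, adjusted p = 0.0424), and in both media 4 of 4 pairs were lower than control. The fall in CM did not pass in 7 of 9 fits that each left out 1 library (adjusted p from 0.0505 to 0.145; it passed without PSC4 number 1 of control or PSC4 number 2 of CM), nor with group as the only term (0.052) or without a low-count filter (0.0571). The fall with neratinib did not pass in 5 of 9 (adjusted p from 0.084 to 0.162), those without PSC4 number 1 or PSC5 number 2 of that medium or without PSC4 number 2, PSC4 number 3 or PSC5 number 1 of control, nor with only the 2 groups (0.098) or without a low-count filter (0.0538). Reads of 2 antisense genes that overlap Sdc3, Gm12970 and Gm26716, cannot be told apart from it unless the libraries kept strand, which is not stated in the sources used here.

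Sdc4 (ENSMUSG00000017009, chr2:164424247-164443887, minus strand), the syndecan of focal adhesions that works with integrins and protein kinase C alpha, was lower with TGF-beta. Control libraries had 299.9, 272, 294, 262.5 and 265.5 CPM. TGF-beta libraries had 96.1, 83.5, 129 and 78.7 CPM, well below control. CM libraries had 352, 405, 449.6 and 350.2 CPM, all above control, and those with neratinib 223, 370.2, 438 and 298 CPM, on both sides of it. Sdc4 fell by 1.54 with TGF-beta (log2, SE 0.18, edgeR adjusted p = 1e-05). In CM the difference was 0.47 (SE 0.17, 95% interval 0.11 to 0.83) and missed the threshold (adjusted p = 0.0785), with 4 of 4 pairs higher. The same difference passed with the replicate block (0.45, adjusted p = 0.0351), without the 3 libraries labelled PSC4 number 1 (0.55, adjusted p = 0.0374), in a fit of only these 2 groups (0.48, adjusted p = 0.00745) and with DESeq2 (adjusted p = 0.0383). In CM with neratinib it was 0.23 (-0.13 to 0.60, adjusted p = 0.279).

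**Figure D2:**
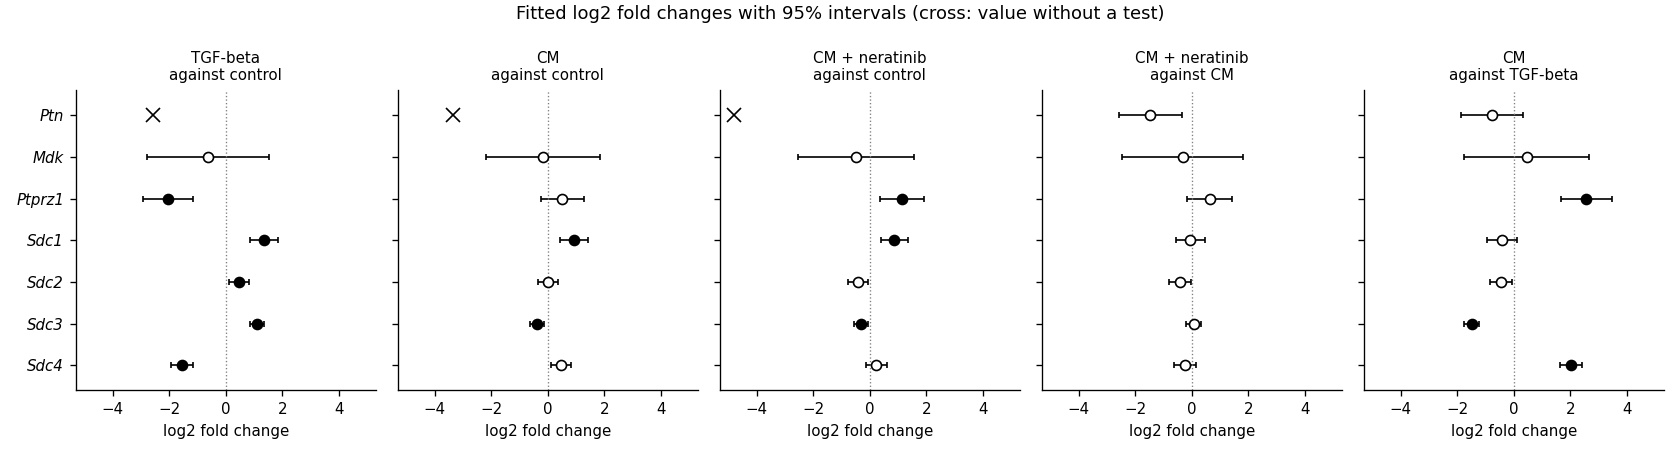
Fitted log2 fold change of each gene in 5 comparisons of media, with 95% intervals; filled points passed an adjusted p of 0.05, open points did not, and crosses are Ptn against control, shown without a test. With TGF-beta, Sdc1, Sdc2 and Sdc3 lie above 0 and Ptprz1 and Sdc4 below it, and no point is filled for CM with neratinib against CM.

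Counted over the 6 genes other than Ptn, TGF-beta changed 5 of 6 (3 higher, 2 lower), beside 40.2% of all genes tested (19.7% higher, 20.5% lower). CM changed 2 of 6 (Sdc1 higher, Sdc3 lower), beside 14.2% of all genes (7.05% higher, 7.14% lower). CM with neratinib changed 3 of 6 (Ptprz1 and Sdc1 higher, Sdc3 lower), beside 43.1% (22.2% higher, 20.9% lower). With the replicate block that last count was 5 of 6, with Mdk and Sdc2 added as lower, beside 7300 of the 13923 genes. Fitted in PSC4 or PSC5 alone, 4 and 2 of 6 passed with TGF-beta and 0 in both conditioned media. Far fewer of all genes passed in such fits. In PSC5 alone these were 2 for CM and 1362 for CM with neratinib, beside 1976 and 5998 over all libraries. In PSC4 alone 2537 passed with TGF-beta, beside 5598. The 0 of 6 for CM in PSC5 therefore says little about these genes. Groups did not overlap with control for 5 of these 6 genes with TGF-beta (32.7% of all genes), 2 of 6 in CM (19.8%) and 1 of 6 in CM with neratinib (29.4%). The median log2 fold change of these 6 genes was -0.08, 0.23 and -0.04 in the 3 comparisons, beside -0.02, 0.00 and 0.01 (log2) over all genes.

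Neratinib was also compared with conditioned medium alone, which asks what the ERBB inhibitor adds. None of the 7 genes passed (edgeR; 2 had an unadjusted p under 0.05, DESeq2 called 1), beside 20.5% of all genes, and the groups overlapped for all 7 (18.7% of all genes did not overlap). Ptn was lower with neratinib by a fitted log2 of -1.47 (SE 0.53, 95% interval -2.59 to -0.34, adjusted p = 0.0616) and lower in 3 of 4 pairs; in PSC5 number 1 it was 27.7 CPM with the drug and 20.6 CPM without. Leaving out PSC5 number 1 of CM gave -1.81 (adjusted p = 0.0161), DESeq2 gave an adjusted p of 0.0353, and leaving out the 3 libraries labelled PSC4 number 1 gave -1.01 (adjusted p = 0.268). Sdc2 differed by -0.41 (-0.79 to -0.03, adjusted p = 0.114). The intervals for the other syndecans were -0.57 to 0.46 for Sdc1, -0.20 to 0.33 for Sdc3 and -0.61 to 0.15 for Sdc4. Sdc4 was lower with the drug in 4 of 4 pairs. So was Mdk, at 0.673 to 0.892 of its CM level, where the fitted log2 difference was -0.32 (-2.46 to 1.82). Ptprz1 was higher with the drug in 3 of 4 pairs, with a fitted difference of 0.63 (-0.16 to 1.42, adjusted p = 0.249).

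Set against TGF-beta, CM gave other levels of 3 of the receptors. Ptprz1 was higher in CM by 2.56 (log2, SE 0.42, edgeR adjusted p = 0.000284) and Sdc4 by 2.01 (SE 0.19, adjusted p = 1.42e-06), while Sdc3 was lower, at -1.49 (SE 0.13, adjusted p = 6.09e-07). These 3 of 7 compare with 35.3% of all genes (17.8% higher, 17.5% lower), and they are also the 3 whose groups did not overlap (31.5% of all genes). Sdc2 was at -0.46 (adjusted p = 0.0571) and passed with the replicate block (-0.53, adjusted p = 0.0366), with DESeq2 (adjusted p = 0.0311), without PSC4 number 1 of CM (-0.62, adjusted p = 0.014) and without the 3 libraries labelled PSC4 number 1 (-0.62, adjusted p = 0.00125). Sdc1 differed by -0.42 (-0.94 to 0.10) and Ptn by -0.76 (-1.85 to 0.33). For Mdk the difference was 0.45 (-1.77 to 2.67), and it turned to -0.45 with the replicate block. Whether the treatments acted differently in the 2 lines was tested by interaction terms for TGF-beta, CM and neratinib. None of the 7 genes passed in any of the 3 (edgeR; 0% of all genes, and 0 of 7 at an unadjusted p under 0.05). None of the 7 passed either with the 3 libraries labelled PSC4 number 1 left out or with these counted as PSC5, where 2 and 3 of all genes passed for TGF-beta and 0 for CM and neratinib. These fits rest on few libraries of each line in each medium. Intervals were wide, as for Mdk with TGF-beta as labelled (log2 3.42, -0.875 to 7.72), so they cannot show that the lines responded alike.

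Levels can be ordered between genes only per length, so CPM was divided by the exon length of each gene in kb. In control the order was Ptn (202 CPM per kb), Sdc4 (109), Sdc2 (71.7), Sdc1 (49.8), Sdc3 (21.3), Mdk (5.67) and Ptprz1 (0.0741), and each gene was above the next in 5 of 5 libraries. With TGF-beta the order per kb was Sdc1 (126), Sdc2 (100.1), Sdc3 (46.4), Sdc4 (38.0), Ptn (34.8), Mdk (6.01) and Ptprz1 (0.0178); Sdc1 was above Sdc2, and Sdc4 above Ptn, in only 3 of 4 libraries. In CM it was Sdc4 (153), Sdc1 (94.0), Sdc2 (72.2), Ptn (20.9), Sdc3 (16.4), Mdk (5.40) and Ptprz1 (0.107), where Sdc1 exceeded Sdc2, and Ptn exceeded Sdc3, in 2 of 4 libraries. In CM with neratinib it was Sdc4 (130.4), Sdc1 (90.3), Sdc2 (54.8), Sdc3 (17.2), Ptn (7.70), Mdk (4.12) and Ptprz1 (0.167), with Ptn above Mdk in 3 of 4. Ptn thus went from rank 1 in control to rank 5 with TGF-beta, rank 4 in CM and rank 5 in CM with neratinib, and Sdc4 from the highest syndecan to the lowest with TGF-beta.

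The make-up of the syndecan pool with TGF-beta stood apart from that in the other media. Of the summed CPM per kb of the 4 syndecans, Sdc4 made up 39.5 to 45.2% in control, 10.6 to 14.8% with TGF-beta, 42.6 to 46.6% in CM and 43.1 to 47.0% in CM with neratinib. Sdc1 made up 17.3 to 22.8%, 32.8 to 47.7%, 22.7 to 31.75% and 24.1 to 34.6%. Sdc3 made up 6.93 to 9.68% in control, 13.7 to 16.4% with TGF-beta, 4.31 to 5.42% in CM and 4.87 to 6.87% in CM with neratinib. The ratio of Sdc1 to Sdc4 per kb ran from 0.392 to 0.504 in control, 2.22 to 4.48 with TGF-beta, 0.490 to 0.682 in CM and 0.513 to 0.803 in CM with neratinib. Sdc4 was thus the largest share in every library outside TGF-beta and the smallest in every TGF-beta library. Mean summed levels of the 4 were 252, 311, 335 and 293 CPM per kb in the 4 groups. These ratios restate the gene values above and were not tested.

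**Figure D3:**
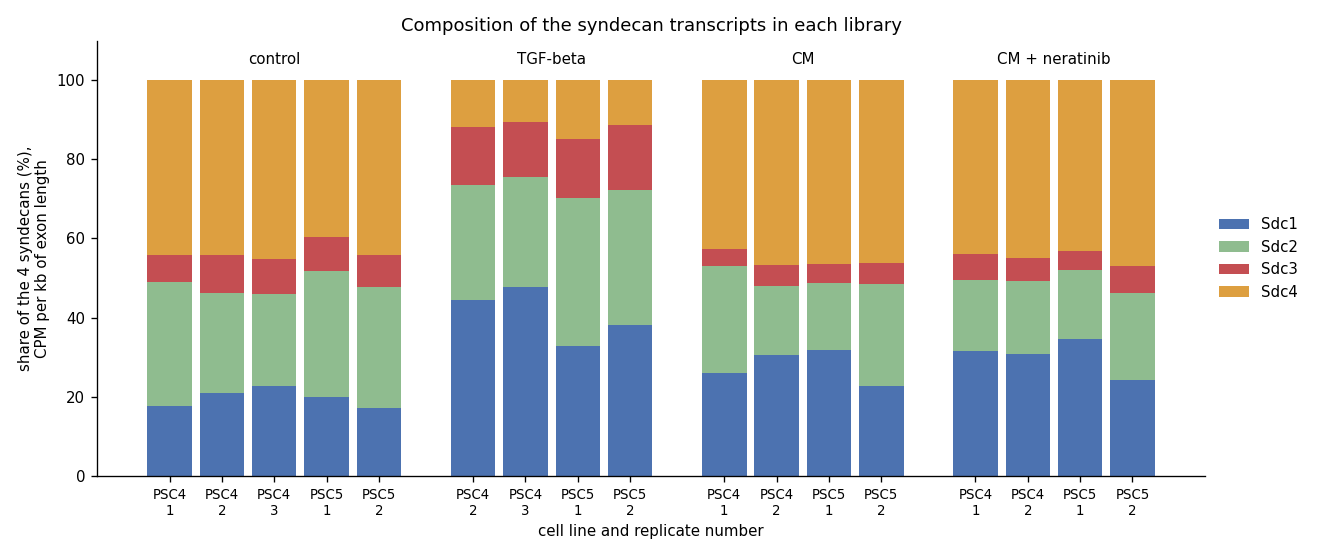
Share of each syndecan (percent of the summed CPM per kb of exon length of the 4) in each library, by medium, with the line and replicate number below each bar. The Sdc4 share is 39.5 to 47.0% in the libraries outside TGF-beta and 10.6 to 14.8% with TGF-beta, where Sdc1 reaches 32.8 to 47.7%.

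Other genes of the pathway were read from 5 lists with 94 genes, of which 83 were tested: partners of the ligands, other heparan sulfate proteoglycans, enzymes that build or edit heparan sulfate, enzymes of chondroitin and dermatan sulfate, and syndecan partners with sheddases. TGF-beta changed 41 of 83 (32 higher, 9 lower), CM 19 (11 higher, 8 lower) and CM with neratinib 35 (19 higher, 16 lower). These are 49.4%, 22.9% and 42.2% of the listed genes, beside 40.2%, 14.2% and 43.1% of all genes. The counts of each list below are to be read beside the same shares of all genes, and no list was tested as a set. With the replicate block CM changed 29 of 83, beside 3240 of the 13923 genes.

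Among 13 tested partners and receptors of the ligands, TGF-beta raised 7 and lowered 1 (median log2 0.29). Integrin beta 3 (Itgb3), which with the alpha V chain binds pleiotrophin, went from 6.74 ± 2.33 to 94.4 ± 17.7 CPM (log2 3.86, SE 0.30, edgeR adjusted p = 2.38e-07). The chondroitin sulfate proteoglycan NG2 (Cspg4) went from 3.68 ± 1.86 to 62.3 ± 28.6 CPM (4.13, SE 0.34, adjusted p = 4.77e-07). For both, all 4 TGF-beta libraries were above every other library, with Itgb3 at 94.0, 108, 69.5 and 105.8 CPM and at most 9.70 CPM elsewhere. The endocytic receptor Lrp1, which takes up midkine, rose from 798 to 1967 CPM (1.30, adjusted p = 3.09e-06), and the Wnt co-receptor Lrp6 fell by 0.51 (log2, adjusted p = 0.000174). CM raised 1 and lowered 2 of the 13. Nrp1, a neuropilin reported to bind both ligands, fell by 1.25 (from 203 to 83.0 CPM, adjusted p = 0.00122), Lrp6 fell by 0.48, and Lrp8, a reelin receptor, rose by 0.46. CM with neratinib raised 4 and lowered 2, with integrin alpha 6 (Itga6) at 1.06, Lrp8 at 1.00 and Nrp1 at -1.40 (log2, adjusted p from 6.65e-05 to 0.000956).

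Of 11 other heparan sulfate proteoglycans tested, TGF-beta raised 4 and lowered 2 (median log2 -0.39). Collagen XVIII (Col18a1), a basement membrane proteoglycan, went from 65.7 ± 7.70 to 270.2 ± 43.6 CPM (2.04, SE 0.15, edgeR adjusted p = 1.14e-07), glypican 1 (Gpc1) rose by 1.19 and agrin (Agrn) by 0.67. Betaglycan (Tgfbr3), a co-receptor for TGF-beta, fell from 314 ± 37.5 to 84.9 ± 28.8 CPM (-1.88, SE 0.19, adjusted p = 3.54e-06), and glypican 6 (Gpc6) fell by 1.81. CM and CM with neratinib raised none of the 11 and lowered 2 and 3. Gpc6 was 81.4 to 124 CPM in control, 31.8 to 56.4 CPM in CM and 18.7 to 36.6 CPM with neratinib, so that all treated libraries lay below control. Its log2 fold changes were -1.14 (adjusted p = 0.00492) and -1.71 (adjusted p = 7.34e-05).

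Sulf1 and Sulf2 showed the widest changes against control among genes of heparan sulfate synthesis and editing with at least 10 CPM (27 were tested in all). The heparanase Hpse, also an editing enzyme, passed in none of the 3 comparisons with control (edgeR adjusted p = 0.215, 0.115 and 0.918). With the replicate block it passed for TGF-beta and CM (adjusted p = 0.0113 and 0.0111). Sulf1 and Sulf2 are extracellular sulfatases that remove 6-O-sulfates from the chains. Sulf1 was 11.4 to 18.3 CPM in control, 88.4 to 177 CPM with TGF-beta, 30.65 to 63.9 CPM in CM and 24.2 to 84.4 CPM with neratinib. All treated libraries were above control, with log2 fold changes of 3.26 (SE 0.37, edgeR adjusted p = 9.18e-06), 1.68 (SE 0.36, adjusted p = 0.00773) and 1.83 (SE 0.36, adjusted p = 0.00114). Sulf2 went the other way in conditioned media, from 130.0 to 166 CPM in control to 10.4 to 50.3 CPM in CM (-2.29, SE 0.55, adjusted p = 0.0148) and 16.2 to 65.7 CPM with neratinib (-2.09, SE 0.55, adjusted p = 0.00721). With TGF-beta, Sulf2 was 112 and 125.5 CPM in PSC4 and 31.9 and 26.2 CPM in PSC5, so the lines lay apart. Its fitted difference there was -1.09 (SE 0.53) and did not pass (edgeR adjusted p = 0.116, or 0.0473 with the replicate block). The chain polymerase Ext1 rose in each treated group, by 0.84, 0.54 and 0.57 (log2). In all, TGF-beta raised 7 and lowered 3 of the 27 (7 and 7 with the replicate block), CM raised 4 and lowered 2 (7 and 4 with the replicate block), and CM with neratinib raised 8 and lowered 6. The counts with the block are to be read beside 7091 of the 13923 genes for TGF-beta and 3240 for CM.

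**Figure D4:**
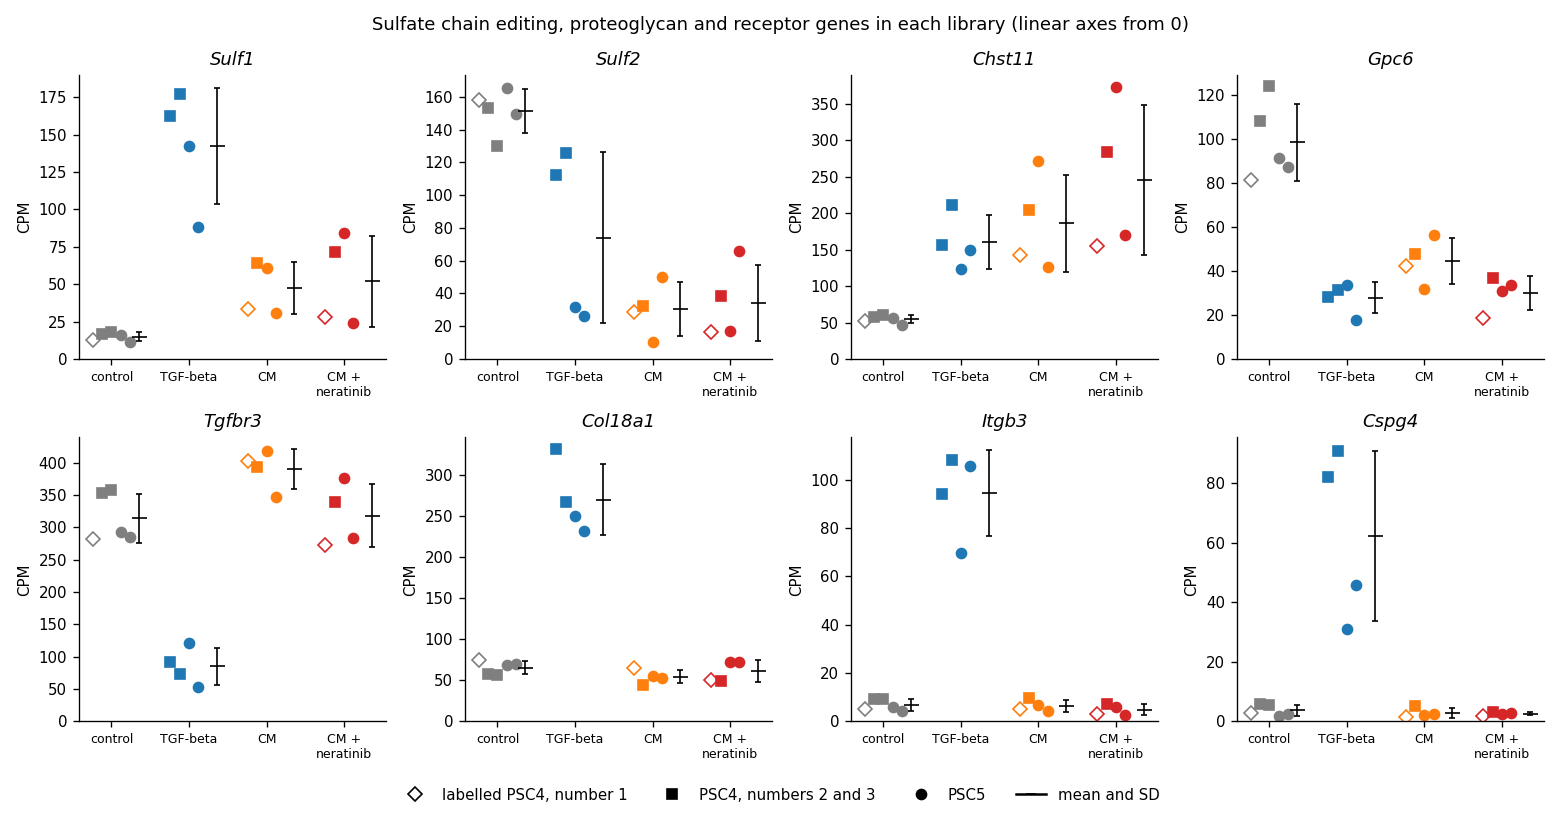
Level in CPM (linear axes from 0) of 8 genes of the lists in each library, by medium, with symbols for the library source and the mean with its SD. Sulf1 and Chst11 are above control and Gpc6 below it in every treated library, while Itgb3, Cspg4 and Col18a1 are high in the TGF-beta libraries and not in the other groups.

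Of 16 tested genes of chondroitin and dermatan sulfate synthesis, the chains of Ptprz1, TGF-beta raised 9 and lowered 1 (median log2 0.30). Chst11, a chondroitin 4-O-sulfotransferase, was 46.6 to 60.5 CPM in control, 123 to 211 CPM with TGF-beta, 126 to 272 CPM in CM and 155 to 373.5 CPM with neratinib. It was higher in every treated library, by 1.55 (SE 0.27, edgeR adjusted p = 0.000342), 1.77 (SE 0.27, adjusted p = 0.001) and 2.17 (SE 0.27, adjusted p = 4.21e-05). The chondroitin synthase Chsy1 (1.15, adjusted p = 1.22e-08) and the uronyl 2-sulfotransferase Ust (1.31, adjusted p = 2.48e-07) rose with TGF-beta. In CM with neratinib, 3 of the 16 rose and 3 fell, among the latter Chst15, which adds a 6-O-sulfate to sulfated chondroitin (-1.49, adjusted p = 0.00711), and Ust (-0.56, adjusted p = 0.000865).

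Among 16 tested syndecan partners and sheddases, TGF-beta raised 5 and lowered 2. The matrix metalloprotease Mmp2 rose by 1.37 (edgeR adjusted p = 0.000161) and the cytoskeletal linker ezrin (Ezr) by 0.64, while the sheddase Adam10 fell by 0.35. CM raised 3 and lowered 2 and CM with neratinib raised 4 and lowered 2. Prkca, the protein kinase C alpha that binds the Sdc4 tail, fell in all 3 comparisons, by 0.35, 0.82 and 1.10 (log2; adjusted p from 7.61e-06 to 0.0177). The sheddase Adam17 rose by 0.42 in CM and 0.39 with neratinib. Timp3, an inhibitor of such sheddases, fell in CM (log2 -1.27, SE 0.39, adjusted p = 0.0431) and with neratinib (-2.185, SE 0.41, adjusted p = 0.000787), from 523 ± 198 CPM in control to 202 ± 66.0 and 100.1 ± 53.8 CPM.

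Neratinib against CM changed 15 of the 83 listed genes (10 higher, 5 lower; 18.1%, beside 20.5% of all genes), and 29 with the replicate block (14 higher, 15 lower), beside 4563 of all genes. The largest rises among genes with at least 10 CPM were the glucuronyl epimerase of heparan sulfate (Glce), from 71.0 ± 4.28 to 125 ± 20.5 CPM (0.81, SE 0.10, edgeR adjusted p = 0.000202), Itga6 (0.85, adjusted p = 0.0138) and Ezr (0.73, adjusted p = 0.00929). Chst15 fell from 17.2 ± 4.54 to 5.92 ± 3.94 CPM (-1.52, adjusted p = 0.0173). CM against TGF-beta changed 42 of the 83 (11 higher, 31 lower; 50.6%, beside 35.3%). Itgb3 and Cspg4 were lower in CM by 3.89 and 4.40 on the log2 scale, Col18a1 was at -2.31, Timp3 at -1.90 and Sulf1 at -1.58, while Tgfbr3 was higher by 2.20 and the heparanase Hpse by 1.84 (adjusted p from 1.1e-07 to 0.0081). The lines lay apart for Timp3 with TGF-beta, at 1005 and 1498 CPM in PSC4 and 396 and 394 CPM in PSC5. All of these were above the CM libraries, at 120 to 278 CPM.

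The genes with the most similar pattern across the 17 libraries were taken by Pearson correlation of log2 CPM, among 9767 genes with a mean of at least 10 CPM. They are a description, since libraries share media, lines and passages. For Ptn they were Trim2 (r = 0.972), Matn2 (0.958) and Fhl2 (0.956), and for Mdk they were Cers5 (0.962), Dcaf7 (0.955) and Grik5 (0.949). For Sdc1 they were Fbln2 (0.971), Timp1 (0.968) and the sulfatase Sulf1 (0.962), and for Sdc2 they were Mrc2 (0.943), Lrch2 (0.938) and Tfeb (0.93). For Sdc3 they were Unc5b (0.982), Csrp2 (0.976) and Pxdn (0.975), and for Sdc4 they were complement C3 (0.98), Slit3 (0.976) and Ptgir (0.976). Over the 14 libraries without the 3 labelled PSC4 number 1, Trim2 still came first for Ptn (0.967) and Mrc2 for Sdc2 (0.949), and the first genes became Ccl2 for Sdc4 (0.989), Fbn1 for Sdc3 (0.983), Ptbp3 for Sdc1 (0.972) and Gm16286 for Mdk (0.974).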

How the data were processed

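The deposited tables hold expected counts per gene, 1 table per library, which the authors estimated with Salmon 1.4.0 on GRCm38 (mm10), per the submitters' processing notes. The annotation release is not given in the sources used here. Of the values above 0, 74.8% were not whole. Counts were rounded, which moved no library's total by more than 308 counts. Symbols, positions and exon lengths came from GENCODE M21. edgeR 4.0.16 (R 4.3.3) was used with TMM scaling, a low-count filter by group, group and line as terms, and the quasi-likelihood test over all 17 libraries. Benjamini-Hochberg adjustment ran over all 13923 genes, with a threshold of 0.05. The procedure was tested on simulated data. Alternatives were other scalings and filters, DESeq2 1.42.0, other terms and fewer libraries. The members, lists and the rule for named genes were chosen with earlier results of these data known. From each list, up to 3 rises and 3 falls per comparison with at least 10 CPM in the higher group could be named. The common biological coefficient of variation was 19.8%, and 3 counts equal 0.101 to 0.137 CPM.

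In all 22 pairs of the same line and number, deviations from the group means correlated above 0.1 (0.12 to 0.635). Without the libraries labelled PSC4 number 1, the median was 0.288 over 19 such pairs. Over 18 pairs of the same line and another number it was 0.255, with 14 above 0.1. These correlations therefore do not tell the replicate number apart from the line. The labels give the replicate numbers with the passage.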

Additional observations from a re-analysis of the deposited data

How the results depend on the processing

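Of 286 refitted values of genes that passed in the 5 comparisons of media, leaving aside Ptn against control, 241 stayed past the threshold, 45 did not and 0 changed sign. Counts of the 7 genes (6 without Ptn against control) that pass moved by more than 1.5 times as follows. With a fold of at least 2 also required (log2 of 1), 0 passed in CM and 1 in CM with neratinib, against control. DESeq2 called 1 in CM with neratinib against CM. Without a low-count filter, or with group as the only term, 1 passed in CM. The replicate block gave 5 in CM with neratinib (beside 7300 of all genes), a fit of only the 2 groups 1. PSC4 alone gave 0 and 0 in the conditioned media, and PSC5 alone 0 and 0 (beside 2 and 1362 of all genes), with 2 for TGF-beta. Code T6 alone, tried after the data were seen, gave 1 in CM and 5 for CM against TGF-beta, and code T8 alone 1 in CM. Counted with PSC5, the 3 libraries labelled PSC4 number 1 gave 5 in CM with neratinib and 1 between the lines (beside 6046 of all genes), and left out 2 between the lines. Leaving out 1 library at a time, the counts ranged from 0 to 2 in CM, 1 to 4 in CM with neratinib, 0 to 1 for neratinib against CM and 0 to 1 between the lines. Smaller moves upward were 3 in CM (DESeq2, the replicate block, only the 2 groups, or the 3 libraries left out), 4 in CM with neratinib (upper-quartile factors, DESeq2, or the 3 libraries left out) and 4 for CM against TGF-beta (DESeq2, the replicate block, or the 3 libraries left out or counted with PSC5).

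Among 424 refitted values of genes that did not pass, 22 passed and 42 had the other sign, none of the latter past the threshold. For Sdc2 in CM these were 0.005 with median-of-ratios factors, with DESeq2 and without a filter, 0.01 with group as the only term, 0.003 with only the 2 groups, 0.132 in PSC4 and 0.096 with code T8 (-0.173 to 0.089 leaving out 1 library). For Mdk with TGF-beta they were 0.07 with the replicate block, 0.08 with group only, 0.039 and 0.038 with the 3 libraries left out or counted with PSC5, and 0.426 in PSC5 (-1.05 to 0.184 leaving out 1). In that order, Mdk in CM against TGF-beta was -0.453, -0.149, -0.475, -0.498 and -0.691, and -0.346 with code T6 (-0.331 to 0.891). With code T8, Mdk was 0.376 in CM (-1.23 to 0.93 leaving out 1) and 0.112 with neratinib (-1.726 to 0.626), and for neratinib against CM it ran from -1.53 to 0.726. Sdc1 for neratinib against CM was 0.037 without the 3 libraries and 0.081 in PSC5 (-0.392 to 0.133), and Sdc3 was -0.008 in PSC4 (-0.017 to 0.176). The causes were not tested. The replicate block changed the other calls of the 7 genes in no comparison of media beyond those given with the results.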
